A study of Mus musculus with 6 samples.

Results

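Nkx3-2, the mouse gene for the homeodomain transcription factor Bapx1, was examined together with the 500 kb on either side of it for tags and peaks of Bapx1 and Sox9 ChIP-seq. It is 1 gene of the 22367 protein-coding genes of the annotation used. On mm9 the gene lies on chromosome 5 from 42152404 to 42155735 on the minus strand (ENSMUSG00000049691.6), and the window runs from 41652404 to 42655735. By position, the window held 2 of the 2815 peaks of the embryo Bapx1 list, 5 of the 23207 peaks of the NIH3T3 Bapx1 list and, after the displacement of the Sox9 pair had been corrected, 1 of the 3722 Sox9 peaks. No deposited peak of either embryo list touched the gene itself. The 2 NIH3T3 peaks with the smallest p in the window lay on its coding exons, where the transfected Bapx1 cDNA carries the same sequence.

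The embryo pair consisted of vertebral columns of E12.5 CD1 embryos, with S-peptide tagged Bapx1 in the ChIP and wildtype embryos in the control, both precipitated with the anti S-peptide antibody. The tag had been placed in the endogenous gene by homologous recombination, so that the protein was made from its own locus, and embryos were pooled for each library. The Sox9 pair was anti-Sox9 and IgG from untagged E12.5 CD1 embryos, whose tissue is labelled as vertebral column and limb. In NIH3T3 cells, a mouse fibroblast line, V5-tagged Bapx1 was overexpressed from a plasmid and precipitated with anti-V5, and the V5 control is described in the labels both as cells with empty pcDNA6 and as wild type 3T3. The control titles say input, whereas the descriptions name the antibodies. Each of the 6 conditions had 1 library, so there was no replicate check, and each ratio below compares 2 libraries with an exact binomial (Clopper-Pearson) 95% interval that covers counting error only. The libraries held between 9124697 and 24855032 tags of 35 bp. A larger share of cells with the factor on a site and more factor per cell cannot be told apart in these pools.

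Bapx1 belongs to the NK family of homeodomain proteins and acts in the sclerotome, the part of the somite that forms the vertebrae. It is known as a mainly repressive factor downstream of hedgehog signals and of Pax1 and Pax9, it takes part with Sox9 in a cartilage programme, and embryos without it have defective vertebral bodies and no spleen. A factor of this kind may bind near its own gene, and such sites can lie far from the start.

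The stretches around the 5 Bapx1 summits outside the exons are shown first because they are the candidate sites of the locus. Each covers 50 bp on either side of the summit on the plus strand of mm9. The motif searched was TGAGTG or TAAGTG on both strands, 2 spellings that share the letters AGTG. Capitals mark the whole motif where it occurs, and elsewhere AGTG or its reverse complement CACT.
Embryo peak 371.5 kb downstream, chr5:41784164-41784264: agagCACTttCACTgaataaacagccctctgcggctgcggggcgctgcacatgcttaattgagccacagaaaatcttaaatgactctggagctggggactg
Embryo peak 31.7 kb upstream, chr5:42187371-42187471: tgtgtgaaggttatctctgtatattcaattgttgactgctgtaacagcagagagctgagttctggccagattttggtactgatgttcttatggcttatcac
NIH3T3 peak 34.0 kb upstream, chr5:42189685-42189785: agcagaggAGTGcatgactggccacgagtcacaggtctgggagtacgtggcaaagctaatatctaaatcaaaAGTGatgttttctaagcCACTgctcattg
NIH3T3 peak 226.8 kb upstream, chr5:42382506-42382606: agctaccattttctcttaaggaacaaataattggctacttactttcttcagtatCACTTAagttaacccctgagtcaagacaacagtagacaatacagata
NIH3T3 peak 467.9 kb upstream, chr5:42623580-42623680: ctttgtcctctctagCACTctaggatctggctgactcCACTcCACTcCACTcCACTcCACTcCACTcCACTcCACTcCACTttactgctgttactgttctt

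The motif occurred within 50 bp of 1 of these 5 summits. It was TAAGTG on the minus strand, centred 6.5 bp from the summit of the NIH3T3 peak 226.8 kb upstream. Neither of the 2 embryo summits had it, whereas 31.3% of the 2815 embryo summits and 10.5% of the flanks 500 bp away did. Of the 3 NIH3T3 summits 1 had it, beside 64.4% of 23203 summits of that list outside Nkx3-2 and 10.7% of their flanks. Among the 9933 tiles of 101 bp that make up the window, 10.9% held the motif. At the embryo peak 371.5 kb downstream the nearest match, TGAGTG, lay 88 bp from the summit, and at the embryo peak 31.7 kb upstream it lay 198 bp away. For the NIH3T3 peaks 34.0 kb and 467.9 kb upstream these distances were 1686 bp and 378 bp. The last of the stretches holds the unit ACTCC 9 times in tandem, and with it 10 copies of AGTG on either strand, while a tile of the window held a median of 1.

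In NIH3T3 the exons of Nkx3-2 held more tags in V5-Bapx1 than in the V5 control, and were among the most densely tagged of all protein-coding genes. With 1 tag kept per position and strand, its exons held 1821 tags in V5-Bapx1 and 381 in the V5 control, a scaled ratio of 6.69 (95% interval 5.99 to 7.49). With every deposited tag counted they held 12976 and 432 tags, a ratio of 43.9 (39.9 to 48.4). The lower ratio comes with a ceiling. In V5-Bapx1, 1802 of the 1862 positions and strands at which a 35-bp tag fits within the coding parts were in use, 96.8%, with 7.12 tags on each, whereas the V5 control used 371 of them with 1.14 tags on each. With 1 tag per position Nkx3-2 ranked 1 in V5-Bapx1 by tags per kb of exon, with 910.5 ahead of 466.7 for the next gene, Gm10800. With every tag counted the order of these turned, with 6488 tags per kb for Nkx3-2 and 11880 for Gm10800, and in the V5 control Gm10800 ranked 1 and Nkx3-2 ranked 4 on either count.

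The tags stopped at the limits of the coding sequence. The coding part of exon 1, 466 bp from 42154718 to 42155183, held 5961 tags in V5-Bapx1 and 203 in the V5 control when every tag was counted. The coding part of exon 2, 533 bp from 42152884 to 42153416, held 6980 and 220. By contrast, the inner part of the intron, 35 bp or more from the coding parts, held 4 tags in V5-Bapx1 and 13 in the V5 control, a ratio of 0.450 (0.107 to 1.46). The untranslated parts, at the same distance or more from the coding parts, held 4 and 8 tags, a ratio of 0.731 (0.161 to 2.73). In both, the interval included 1, whereas the coding parts together had a ratio of 44.7 (40.6 to 49.4) with every tag counted.

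**Figure D1:**
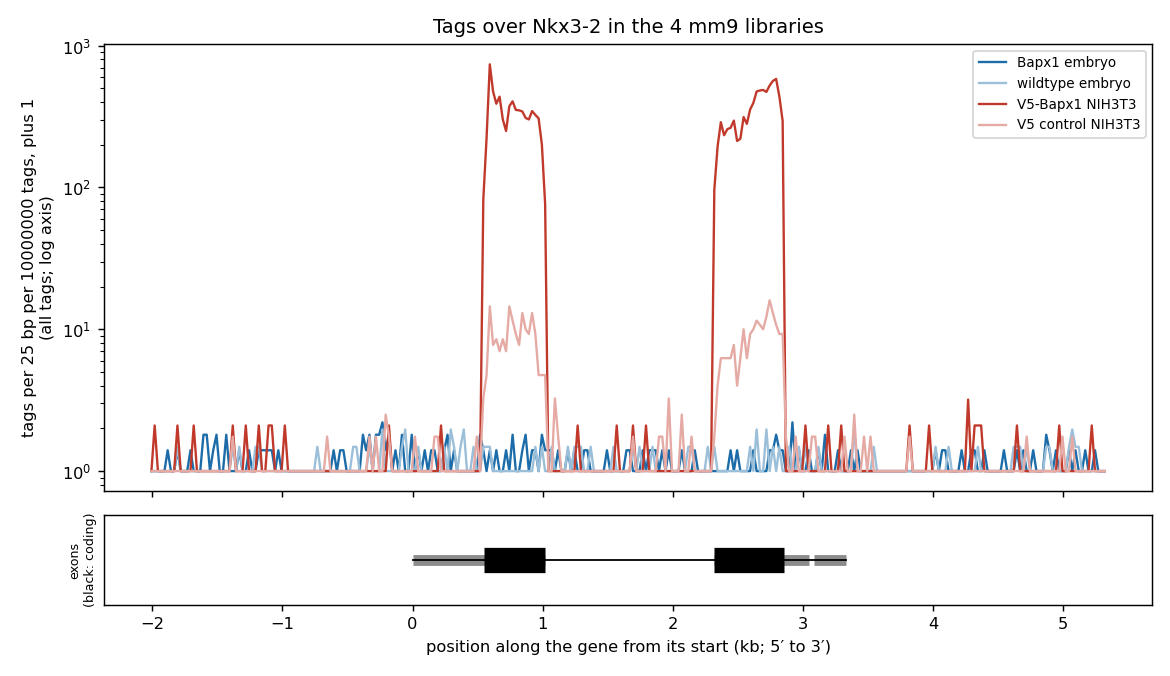
Tags in bins of 25 bp over Nkx3-2 and 2 kb on either side, per 10000000 tags of each of the 4 mm9 libraries plus 1, on a log axis against the position along the gene in kb from its start; the lower panel gives the exons, with the coding parts in black. V5-Bapx1 covers both coding parts and neither the intron nor the untranslated parts, the V5 control follows the same outline at a lower level, and both embryo libraries stay at the base throughout.

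The 4 borders of the tagged sequence are shown because they show where the tagged DNA ends. Each covers 15 bases on either side of the border on the strand of the gene, with the coding bases in capitals and the stop codon as the first lower-case bases of the last.
Start codon side, chr5:42155169-42155198: cgatctgcggcgcagATGGCTGTGCGCGGC
End of exon 1 at the intron, chr5:42154703-42154732: CAGCCAGCGTTTCAGgtctgctgctgcggg
Intron at exon 2, chr5:42153402-42153431: taccggaatccgcagGCGACCACAGCCCGA
Stop codon side, chr5:42152869-42152898: GCTGCTGGTACCCAGtgaagcccttgggac

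At the start codon side 103 tags of V5-Bapx1 covered the whole ATG, and 71 tags ran past it into the untranslated part, the farthest by 4 bases. At the other end 66 tags covered the whole last codon before the stop, and none of the 12976 exonic tags covered all 3 bases of the stop codon. There 32 tags passed the last coding base, 30 of them by 1 base and 2 by 2 bases. The labels place the V5 tag at the N-terminus of the protein, whereas the study's methods describe the cDNA as cloned upstream of the V5 tag. At the 3′ end of exon 1, 9 tags reached into the intron, 7 of them by 1 base and the farthest by 11 bases. There intron and exon 2 share their first base and no more. At the 5′ end of exon 2, 61 tags reached into the intron by up to 6 bases, where the intron and exon 1 share their last 3 bases. The mapping allowed at most 2 mismatches, and the bases that tags carried past the borders were not examined. The plasmid and the genomic copy cannot be told apart by these tags, so nothing about binding was read from the exons in NIH3T3.

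In the embryo, where the tagged protein came from the gene itself, no such excess was seen. The coding parts held 23 tags in Bapx1 and 11 in wildtype, a ratio of 1.74 (0.816 to 3.96), and the intron held 18 and 14, a ratio of 1.07 (0.503 to 2.33). Taken apart, the coding part of exon 1 held 14 and 4 tags (2.92, 0.916 to 12.2) and that of exon 2 held 9 and 7 (1.07, 0.355 to 3.38). All 4 bins of 1 kb that touch an exon had a ratio under 3 in the embryo and above 3 in NIH3T3. The tagged embryos carry the tag sequence in this gene and the wildtype control embryos do not. What this does to the embryo tags at the gene was not tested.

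Just upstream of the gene the Bapx1 embryo library exceeded wildtype over 2 kb, but not clearly over a shorter or longer stretch. The 2 kb before the start held 41 tags in Bapx1 and 14 in wildtype, a ratio of 2.44 (1.3 to 4.85). In NIH3T3 the same 2 kb held 10 tags in V5-Bapx1 and 7 in the V5 control, a ratio of 2.0 (0.687 to 6.19), whose interval includes 1. Among the 21340 protein-coding genes with at least 10 tags of the pair in their own 2 kb, the median embryo ratio was 1.03, the 90th percentile 1.57, and 1.10% of the genes were at or above the value of Nkx3-2. In NIH3T3 the median was 1.29 and 24.4% of 19933 genes were at or above it. This stretch was chosen after its bins had been seen. It also adjoins the gene that was altered in the tagged embryos and not in the wildtype control, and the effect on these tags was not tested. The 1-kb bins centred 0.8 and 1.8 kb upstream held 17 tags against 6 and 16 against 4, ratios of 2.19 and 2.93 with 1 tag added to each count, both short of 3. Over 1 kb, with 21 tags against 9, the ratio was 1.94 (0.853 to 4.82), and over 5 kb it was 1.33 (0.929 to 1.92), so that both intervals include 1, and the deposited list has no peak there. The RefSeq promoter of Nkx3-2, 300 bp around the start on GRCm38.p6, holds neither spelling of the motif, which 23.9% of 32851 RefSeq promoters hold.

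Across the window, bins of 1 kb past the fold were about as frequent as in the genome. A bin was counted when it held at least 10 ChIP tags and its scaled ratio was at least 3. In the embryo 12 of 930 bins outside the exons with any tag were past this rule, 1.29%, beside 0.991% of all 2441856 bins. In NIH3T3 they were 8 of 890, 0.899%, beside 1.26% of 2361409 bins. No bin was past the rule in both pairs. With so few bins past it in each pair this says little about the locus, and the share over all bins is not given. None of the 12 embryo bins and 1 of the 8 NIH3T3 bins, the one 226.8 kb upstream, overlapped a deposited peak of its own list. Over the genome 24209 embryo bins were past the rule, beside 2815 peaks in that list, so bins past it without a peak are not particular to this window. The share of such bins that overlap a peak is not given for the genome. The embryo bin nearest to the start lay 6.8 kb upstream with 18 tags against 4, a ratio of 3.28, and held 3 tags in V5-Bapx1 and 4 in the V5 control. Of these 12 embryo bins, the one with the most tags lay 91.2 kb downstream in an intron of Rab28, with 32 tags against 6, a ratio of 4.02, and 2 further embryo bins lay 98.2 and 99.2 kb downstream in the same gene. The NIH3T3 bin with the most tags, 17 against 4 and a ratio of 4.67, lay 57.2 kb downstream within Rab28, near the start of that gene.

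**Figure D2:**
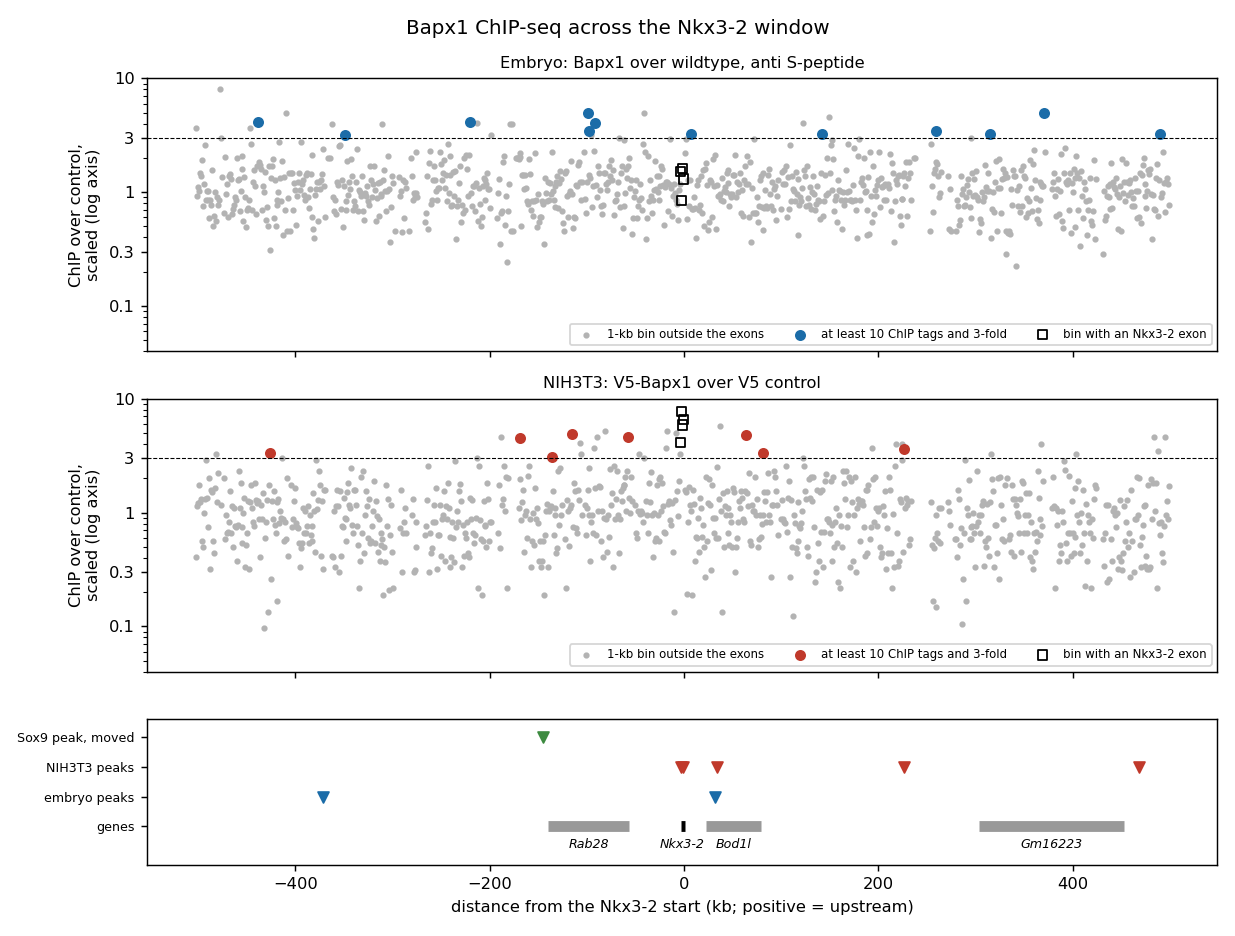
Scaled ratio of ChIP over control in each 1-kb bin of the window, on a log axis, against the distance from the Nkx3-2 start in kb, for the embryo pair (top) and the NIH3T3 pair (middle), with the genes and the summits of the deposited peaks below. The 12 embryo and 8 NIH3T3 bins past the rule (filled, coloured) are spread over the window, and the bins with an exon (open squares) stand above 3 in NIH3T3 and not in the embryo.

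Besides Nkx3-2 the window holds 3 protein-coding genes and no other annotated gene. Rab28, which encodes a small GTPase of the Rab family, starts 56.3 kb downstream. Within 500 bp of its start it had 26 tags in Bapx1 and 10 in wildtype (ratio 2.17, 1.01 to 5.03) and 12 and 11 tags in the NIH3T3 pair (1.53, 0.617 to 3.82). Bod1l, a relative of the gene for the chromosome biorientation factor Bod1, starts 79.7 kb upstream and had 23 and 26 tags in the embryo pair (0.737, 0.402 to 1.34). Gm16223, a predicted gene, starts 303.5 kb upstream and had 3 and 14 tags in the embryo pair (0.179, 0.0329 to 0.640). Its interval lies below 1, and the control was the higher library there. For the start of Nkx3-2 itself the embryo ratio was 1.37 (0.725 to 2.67), beside a median of 1.04 over 20612 genes, of which 25.2% were at or above it. In NIH3T3 it held 2 tags in V5-Bapx1 and 9 in the V5 control, a ratio of 0.311 (0.0327 to 1.5), and 96.1% of 15128 genes were at or above it.

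Outside peaks and exons the window was close to even. Its 993 bins held 9240 tags in Bapx1 and 7319 in wildtype, a ratio of 1.05 (1.02 to 1.08), and 3151 in V5-Bapx1 and 4755 in the V5 control, a ratio of 0.927 (0.886 to 0.970). Within 80 kb of the gene the NIH3T3 ratio was 1.09 (0.986 to 1.21), on the other side of 1. The V5 control was at 1.08 times (1.04 to 1.12) the wildtype embryo control over these bins, beside 1.06 for the whole chromosome.

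The embryo peak nearest to the gene lay 31.7 kb upstream, from 42187333 to 42187537, in an intron of Bod1l. It held 14 tags in Bapx1, 0 in wildtype, 1 in V5-Bapx1 and 1 in the V5 control, which makes the embryo ChIP at least 3.89-fold higher than a control set to the floor of 3 tags, while the exact interval of the ratio of 14 to 0 begins at 2.76. In the deposited list it had 13 tags, a fold of 6.84 and a false discovery rate (FDR) of 61.84%, and it ranked 1827 of 2815 by p. The other embryo peak lay 371.5 kb downstream, from 41784081 to 41784379, in intergenic sequence 232001 bp from the nearest gene, Rab28. It held 21 tags in Bapx1 and 2 in wildtype, a ratio of 8.75 (2.14 to 76.9), and none in either NIH3T3 library. In the deposited list it had 18 tags, a fold of 8.79 and an FDR of 70.49%, and its rank was 1169. Both peaks had an FDR above the median of 61.1% over the list, which MACS derives by swapping ChIP and control. These ratios were part of how the peaks were called and are given as a description.

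The distance to the nearest embryo summit, 31686 bp, was below the median over genes, but it rests on a peak that does not pass a stricter limit: with p of at most 1e-10 the nearest summit lay 646614 bp away, and neither embryo peak has an FDR of at most 5%. The medians of the embryo list for p and FDR miss these limits too, and distances at the stricter limit are not given for other genes. With the full list, 8.34% of all protein-coding genes had an embryo summit nearer to their start than 31686 bp. The median distance was 313898 bp, and 21.5% had a summit within 100 kb. The number of embryo summits in the window was 2, with a median of 1 over like windows of all genes, of which 20.8% held more.

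The NIH3T3 list held 3 peaks outside the exons, all upstream. The one 34.0 kb upstream, from 42189552 to 42189917 in an intron of Bod1l, held 14 tags in V5-Bapx1 and 4 in the V5 control, a ratio of 4.90 (1.54 to 20.4). In the embryo pair it held 3 and 7 tags, a ratio of 0.357 (0.0596 to 1.56). The one 226.8 kb upstream, from 42382322 to 42382717 in intergenic sequence, held 12 and 1 tags in the NIH3T3 pair (16.8, 2.48 to 718) and 7 and 4 in the embryo pair (1.46, 0.371 to 6.79). It is the site with TAAGTG beside its summit. The one 467.9 kb upstream, from 42623463 to 42623773 over the ACTCC repeat, held 11 and 2 tags in the NIH3T3 pair (7.70, 1.68 to 71.5) and 1 and 2 in the embryo pair (0.417, 0.00706 to 8.0). The deposited FDR was 0.31%, 0.59% and 2.13%, and the ranks by p were 9276, 11776 and 17056 of 23207. The ratios of the NIH3T3 pair were part of how these 3 peaks were called and are given as a description.

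Against other genes, the surroundings of Nkx3-2 held few NIH3T3 peaks. With the peaks on its exons left out, 3 summits lay in the window beside a median of 10 in like windows, and 9.31% of the genes had fewer. The nearest summit, at 34000 bp, was close to the median distance of 35831 bp, and 77.9% of all protein-coding genes had one within 100 kb. The 2 peaks on the exons, from 42152722 to 42153510 and from 42154468 to 42155276, shared rank 1 of the list with a deposited FDR of 0. With these 2 the window held 5 peaks, beside a lower quartile of 6 in like windows. The windows were not matched for gene density.

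None of the 2 embryo peaks of the window overlapped an NIH3T3 peak by 1 bp or more, beside 180 of all 2815 embryo peaks, 6.39%, or 0.776% of the NIH3T3 list, so that 0 of 2 says little about the locus. The nearest 2 summits, those 31.7 and 34.0 kb upstream within Bod1l, were 2314 bp apart, and each pair of libraries had few tags at the other's site. Summed over the 3 NIH3T3 peaks outside the exons, the embryo pair held 11 tags in Bapx1 and 13 in wildtype, a ratio of 0.705 (0.286 to 1.71), whose interval includes 1. Over 23203 of the NIH3T3 peaks outside Nkx3-2 the embryo ratio was 1.106 (1.098 to 1.115). Over the 2 embryo peaks the NIH3T3 pair held 1 tag in each library, a ratio of 1.4 (0.0178 to 110), whereas over all 2815 embryo peaks it was 1.74 (1.69 to 1.79). At this depth a difference between the locus and the lists was not detectable, since the intervals of the locus include the values of the lists.

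**Figure D3:**
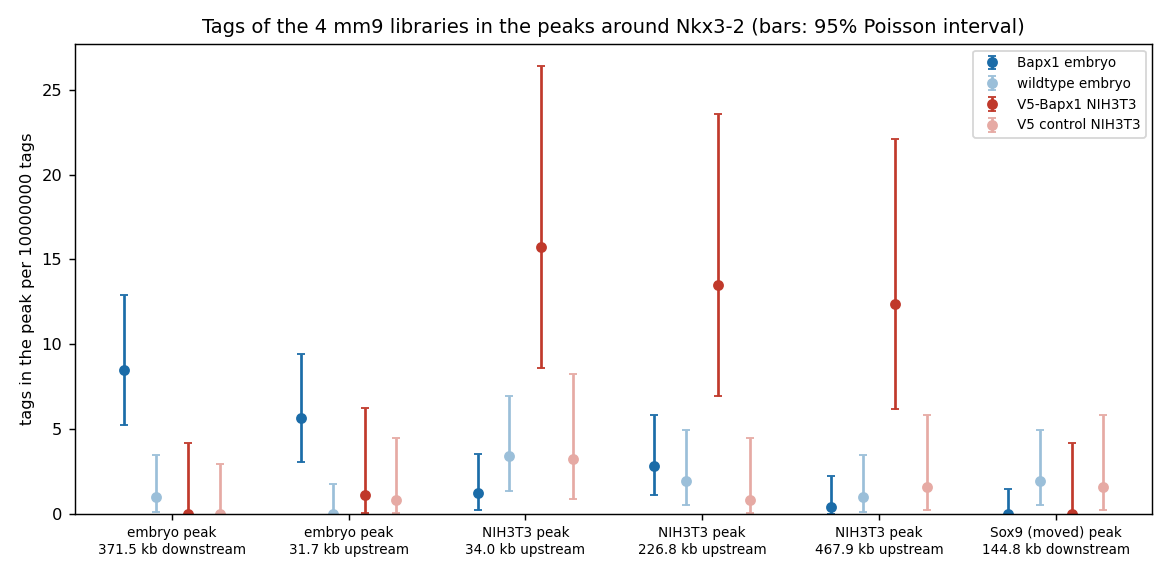
Tags of the 4 mm9 libraries in each peak outside the exons, per 10000000 tags of the library, with the 95% Poisson interval of the count as bars and the peaks ordered by list. The Bapx1 embryo library is the highest in the 2 embryo peaks and V5-Bapx1 in the 3 NIH3T3 peaks, while at the moved Sox9 peak both are at 0. That each Bapx1 library exceeds its own control in its own peaks follows from how the peaks were called.

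The strands of the tags were arranged more regularly around the NIH3T3 summits than around the 2 embryo summits. Tags from the 2 ends of bound fragments face each other, plus-strand tags before the summit and minus-strand tags after it. Within 200 bp of the NIH3T3 summits, 13 of 14, 10 of 11 and 10 of 12 ChIP tags faced the summit in this way, in order of distance from the gene, beside a median of 89.3% over that list. At the embryo peak 31.7 kb upstream 12 of 17 did, 70.6%, beside a median of 77.8% over the embryo list. At the embryo peak 371.5 kb downstream 13 of 25 did, 52.0%, below the 10th percentile of that list, 63.6%. The plus-strand tags had a median position beyond the summit at both embryo peaks, by 62 bp at the one 371.5 kb downstream and by 38 bp at the one 31.7 kb upstream, where 4 of 7 lay after it. Outside the exons, 1-kb bins of the window held a median of 10 tags in the Bapx1 embryo library and 3 in V5-Bapx1. What this background does to the shares of facing tags was not tested.

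**Figure D4:**
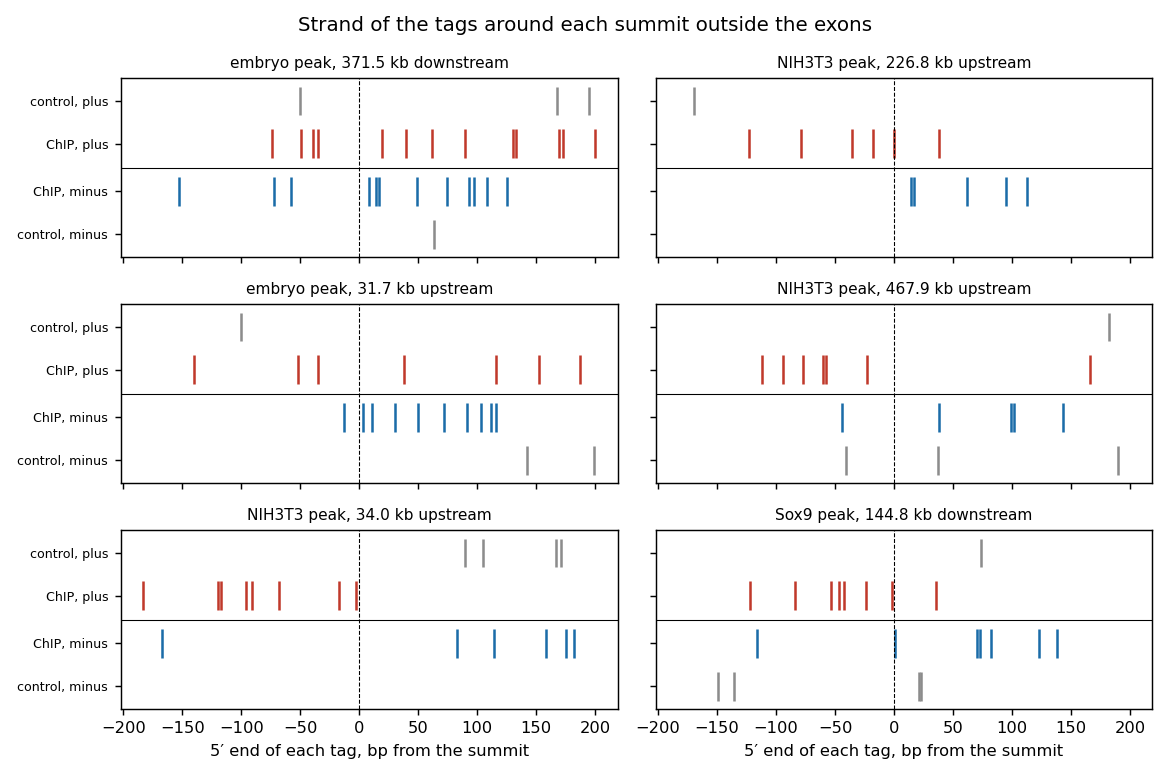
Positions of tag 5′ ends in bp from the summit of each peak outside the exons, plus strand above and minus strand below the line, with ChIP tags in colour and control tags in grey. Plus-strand tags lie before and minus-strand tags after the summit at the 3 NIH3T3 peaks and the Sox9 peak, with 1 or 2 tags against that order at each, while at the embryo peaks 371.5 kb downstream and 31.7 kb upstream 9 and 4 plus-strand tags lie after it.

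For the Sox9 pair the deposited positions were first placed on mm9. In each of the 4 windows of 500 kb around the gene, the tags of the pair matched those of the embryo Bapx1 pair best at a displacement of 103000 bp, with a match 2.46 to 3.26 times the next best. Windows of 250 kb gave 103000 to 103050 bp, and all 8 were clear. With IgG against wildtype alone, windows of 250 kb gave 102900 to 103050 bp, but only 3 of 8 were clear and the match fell to 1.12 times the next best. After this correction 1 Sox9 peak fell in the window, at 42010926, which is 144.8 kb downstream of Nkx3-2 and 5289 bp beyond the 3′ end of Rab28. It held 15 tags in Sox9 and 3 in IgG, a ratio of 5.21 (1.48 to 28.1), and 13 of the 15 ChIP tags within 200 bp of the summit faced it. This ratio was part of how the peak was called and is given as a description. In the deposited list the peak had 14 tags, a fold of 9.22 and an FDR of 100%, rank 3011 of 3722. At the moved position the Bapx1 embryo library had 0 tags, wildtype 4, V5-Bapx1 0 and the V5 control 2, so neither Bapx1 library was above its control there. The next Sox9 peak lay 676.6 kb downstream, outside the window. Sox9 peaks in like windows of other genes were not counted.

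The genes most like Nkx3-2 were sought by the scaled exon ratio of V5-Bapx1 over V5 among the 12638 protein-coding genes with at least 10 exonic tags in V5-Bapx1, with 1 tag per position. The 3 highest of the others were Gm20403, a predicted gene, with 12 tags against 1 (16.8, 2.48 to 718), Rhoa, a small GTPase of the cytoskeleton, with 11 against 1 (15.4, 2.24 to 663), and 1600012F09Rik with 17 against 2 (11.9, 2.82 to 106). Nkx3-2 ranked 12 by this ratio, and its interval is the narrowest of these. With every tag counted it ranked 1, at 43.9 beside 19 for the next gene, Gm20403. The median over the 12638 genes was 0.999.

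Counts over 10 genes around Bapx1, namely hedgehog signals and effectors (Shh, Gli2, Gli3), sclerotome and somite factors (Pax1, Pax9, Meox1, Meox2, Sox9), the BMP antagonist Nog and the osteoblast factor Runx2, gave the setting. An embryo summit lay within 100 kb of the start for 5 of the 10, 50%, beside the 21.5% of all protein-coding genes given above, and an NIH3T3 summit for 8 of the 10, 80%, beside 77.9%. Their median distances to the nearest summit were 91.4 kb in the embryo and 46.6 kb in NIH3T3, against 31.7 and 34.0 kb for Nkx3-2.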

How the data were processed

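Tags of 6 ChIP-seq libraries were used as the authors deposited them, as positions of uniquely mapped reads of 35 bp without normalization; the labels name mm9, and the methods name Illumina's own analysis pipeline for the mapping, with at most 2 mismatches. Per the file headers, MACS called the peaks of each ChIP library against its control, with 1e-05 as the limit on p. For each peak the authors deposited a count of tags, a score of 10 times −log10 of the p-value, the fold enrichment as a ratio to the local background, and the FDR in percent. No peak was called again. Libraries held 9124697 to 24855032 deposited tags, and the width of an interval follows the tags counted in its region.

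Tags were counted at their 5′ end, with 1 tag per position and strand, and scaled by each library's total over the autosomes and sex chromosomes. A tag repeated a position and strand in 2.36% of V5-Bapx1 tags and 6.53% of V5 control tags, and in none of the others. Bins of 1 kb used a pseudocount of 1, at least 10 ChIP tags and a ratio of 3. Ratios have exact binomial 95% intervals and counts exact Poisson intervals; a control at 0 was set to a floor of 3 tags. The displacement of the Sox9 pair was measured by correlating tags in bins of 50 bp, at most 3 per bin, over shifts of up to 4000 kb, and called clear above 1.5 times the next match in a window with at least 1000 tags after that limit per bin. Genes came from GENCODE on NCBIM37 (mm9), sequences from that genome, and promoters from RefSeq (GRCm38.p6). Python 3.11.15, numpy 2.4.6, pandas 2.3.3 and scipy 1.17.1 were used, and the counting was tested on simulated data.

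Named were Nkx3-2, each protein-coding gene and peak of the window, the 3 genes with the highest exon ratio and 10 pathway genes. A further 2 genes of the pathway list are not reported here, and the counts leave them out. The window, the lists and the tests were chosen with earlier results of these data known. Nothing was tested between conditions, since each had 1 library.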

Additional observations from a re-analysis of the deposited data

Results flagged for a closer look

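At 2 of the 3 NIH3T3 peaks outside the exons the pairs of libraries pointed opposite ways, with more tags in V5-Bapx1 than in its control and fewer in the embryo ChIP than in wildtype. At the peak 34.0 kb upstream the embryo ratio was 0.357 and the NIH3T3 ratio 4.90, and at the peak 467.9 kb upstream they were 0.417 and 7.70. The embryo counts behind these ratios were 3 against 7 and 1 against 2 tags. With 1 library per condition the difference was not tested, both embryo intervals include 1, and the peaks had been chosen in the NIH3T3 pair. The share of all NIH3T3 peaks with an embryo ratio under 1 is not given, so 2 of 3 says little about the locus.

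The V5 control, which carries no Bapx1 by its labels, held 423 tags in the coding sequence of Nkx3-2 when every tag was counted. Per kb and 10000000 tags this was 43.7 times the level in the untranslated parts of the same library, 40.1 times that in the inner intron, 59.7 times that of the wildtype embryo library over the coding sequence, and 2.24% of the level in V5-Bapx1. The wildtype embryo tags were deposited without repeats, so the 59.7 sets all tags against 1 tag per position and strand. With 1 tag per position in both, the levels were 299 in the V5 control and 5.32 in wildtype. The source of the V5 control tags in the coding sequence was not tested. They stand in the denominator of the NIH3T3 exon ratio.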

How the results depend on the processing

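Of 44 alternatives over 15 results, 27 left the value within its interval or within 1.5 times of it. Some of these could hardly do otherwise: leaving out peaks that overlap the other list removed none. The interval of the NIH3T3 ratio at the embryo peaks, 0.0178 to 110, holds almost any value. With p of at most 1e-10 the embryo list had 0 peaks in the window, the NIH3T3 list 2, both on the exons, and Sox9 0, and the nearest embryo summit lay 646614 bp away. With an FDR of at most 5% the embryo and Sox9 lists had 0 each. With 250 kb on either side the embryo list had 1 peak, and with 1000 kb the embryo list had 7 and the NIH3T3 list 14. A ratio of at least 2 gave 52 embryo and 16 NIH3T3 bins, at least 5 ChIP tags gave 20 and 26, and bins moved by 500 bp gave 5 in NIH3T3. All tags raised the exon ratio to 43.9. Within 100 bp of the summit 1 embryo peak had the motif. The NIH3T3 ratio outside peaks went from 0.927 to 1.09 within 80 kb of the gene; the cause was not tested. The motif count at p of at most 1e-10 was not obtained, since no peak outside the exons was left. The alternatives for the 2 kb upstream of Nkx3-2, chosen after seeing the data, gave 1.33 to 2.32, and the interval with 1 kb or 5 kb includes 1. No paired analysis was possible because each condition had 1 library. Counts at the sites were low: outside the exons, no peak of the window held more than 21 ChIP tags in the Bapx1 libraries. The effect of depth on the sites was not tested.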
